A study of Mus musculus with 8 samples.

Results

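The liver releases protein hormones, called hepatokines, that act on fat, muscle, brain and the liver itself. Production of several of them follows the feeding state: FGF21 is a fasting hormone made under the nuclear receptor PPARalpha, GDF15 is released by stressed cells and lowers appetite through a receptor in the hindbrain, and angiopoietin-like proteins set how much triglyceride lipoprotein lipase may hydrolyse. Both Fgf21 and Gdf15 are also known targets of the stress factors ATF4 and CHOP, which are induced when unfolded proteins load the endoplasmic reticulum. HRD1, encoded by Syvn1, is a ubiquitin ligase in the membrane of that compartment that marks misfolded proteins for degradation.

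The genes described here are 9 liver-secreted factors listed by symbol, out of 23337 genes in the count files: Fgf21, Gdf15, Angptl4, Angptl6, Fgl1, Lect2, Fetub, Ahsg and Sepp1, the older symbol of Selenop. The genes were listed by symbol with earlier results of these data known, so the list is not independent of the values below. All 9 genes were among the 14328 that passed the filter on low counts. Liver RNA was sequenced from C57BL/6 mice of 12 weeks, either WT or lacking Hrd1 (labelled Hrd1-/-, KO), sampled after an overnight fast or after 4 h of refeeding that followed such a fast. The knockout, called HRD1Alb, carried floxed HRD1 alleles (HRD1 f/f) and a Cre transgene under the albumin promoter, which is active in hepatocytes, so that the other cells of the liver keep the gene. The study's text describes floxed littermates without Cre as its controls, while the labels of the samples used here say only WT. Each of the 4 groups, WT fasted, HRD1Alb fasted, WT refed and HRD1Alb refed, held 2 samples. Nothing in the labels says that the 2 samples came from separate animals, and p-values measure only the spread between these samples. Sex, time of day and batches of preparation were not given.

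The libraries held between 40210576 and 49117080 counts. The deletion was checked first on Syvn1 itself, in CPM, the counts relative to library size after scaling by the trimmed mean of M-values (TMM). In fasted liver, Syvn1 stood at 111 and 99.8 CPM in WT and at 32.6 and 31.5 CPM in HRD1Alb. In refed liver, it stood at 637 and 305 CPM in WT and at 453 and 132 CPM in HRD1Alb, so the groups overlapped and the gene-level count did not show the deletion. Counts over the whole gene do not resolve the floxed exons, and for this reason the refed samples are called the libraries labelled HRD1Alb refed. These libraries also stood apart from each other, with 3204 genes at least 2-fold apart against 424 to 1141 in the other pairs, and with a log ratio that was lower in longer transcripts (14176 genes with a length, Spearman's rho −0.56 against −0.113 to 0.0235 in the other pairs). A deletion effect in refed liver below means these labelled libraries against WT refed, and values with either library left out, in the order without replicate 1 and without replicate 2, stand beside the main results that rest on them. A fit with either library left out holds 1 library in that group and loses the spread between the 2. Its values show how far the size of an effect rests on a library, and passing the test in such a fit is no check of a call.

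Of 10 feeding markers, 3 were called higher and 4 lower on refeeding in WT liver, and 2 higher and 5 lower in HRD1Alb liver. Over all tested genes, 1.20% were called higher and 1.41% lower in WT, and 5.43% and 5.05% in HRD1Alb liver. Pck1, the gluconeogenic enzyme that fasting induces, was at 5524 and 4512 CPM in WT fasted and at 578 and 640 CPM in WT refed liver. In HRD1Alb liver it stood at 3530 and 3673 CPM fasted and at 306 and 374 CPM refed. Pck1 fell on refeeding in both genotypes (log2 fold changes of −3.04 and −3.40, adjusted p = 0.00488 and 0.00183, edgeR's quasi-likelihood test with Benjamini-Hochberg adjustment over all tested genes, the test used for every adjusted p here unless another is named). The hepatocyte marker Alb was the most abundant of 8 hepatocyte markers in these libraries.

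The promoters of Fgf21 and Gdf15 are shown because both genes are known ATF4 and CHOP targets, whose other targets are described further on. The RefSeq table (GRCm38.p6, the mm10 build) holds windows of 250 bases before to 50 bases after a start site for 7 of the 9 genes, with Angptl4 and Fgl1 missing. Capitals mark matches, on either strand, to the core of the ATF4/CHOP element, TGATGNAA, and to the E-box, CACGTG.
Fgf21, chr7:45615441-45615740, minus strand: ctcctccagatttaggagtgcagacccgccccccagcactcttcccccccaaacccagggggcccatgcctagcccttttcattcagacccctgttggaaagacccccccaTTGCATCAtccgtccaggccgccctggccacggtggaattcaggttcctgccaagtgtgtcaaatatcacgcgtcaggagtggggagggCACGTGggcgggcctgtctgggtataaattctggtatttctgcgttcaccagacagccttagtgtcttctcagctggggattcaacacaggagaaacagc
Gdf15, chr8:70632046-70632345, minus strand: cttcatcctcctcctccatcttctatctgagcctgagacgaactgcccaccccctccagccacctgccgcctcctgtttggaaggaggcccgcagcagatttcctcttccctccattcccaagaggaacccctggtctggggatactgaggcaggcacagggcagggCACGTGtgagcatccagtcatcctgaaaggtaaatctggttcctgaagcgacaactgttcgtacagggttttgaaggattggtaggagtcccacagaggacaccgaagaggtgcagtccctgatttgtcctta
The Fgf21 window held the ATF4/CHOP core as TTGCATCA, on the strand opposite to the gene, with its first base at −139 from the start site, and an E-box at −50. This Gdf15 window, 1 of 2 listed for the gene, held an E-box at −83 and no ATF4/CHOP core. The other Gdf15 window, chr8:70632407-70632706, spans the annotated start of the gene at 70632456, held neither motif and is not shown. The core occurred in 3.97% of 32851 promoter windows of this length and the E-box in 7.15%. A repeat of AGGTCA with 1 base between, the site type that PPARalpha binds, occurred in 0.0396% of windows and in none of those of the 9 genes. The windows of Angptl6, Lect2, Fetub, Ahsg and Sepp1 held none of the 3 motifs, which says only that these letters were not in these windows.

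The 9 genes covered a wide range of levels. Per kilobase of the longest transcript, the mean over all 8 libraries was 6483 CPM for Ahsg and 3693 CPM for Sepp1, against 392 CPM for Fetub, 122 CPM for Fgl1 and 112 CPM for Lect2. The genes of the inducible hormones were lower, at 48.8 CPM per kilobase for Angptl4, 25.3 for Fgf21, 8.16 for Gdf15 and 7.86 for Angptl6. The order was the same with the mean length of the annotated transcripts. Together the 9 genes took 1.54 to 2.25% of all counts. Within a gene, the highest and the lowest library differed 38.8-fold for Fgf21, 17.1-fold for Angptl4, 15.3-fold for Gdf15 and 7.30-fold for Angptl6, and from 1.54-fold to 4.89-fold for the other five. The low-level genes were thus those that varied most between libraries.

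**Figure D1:**
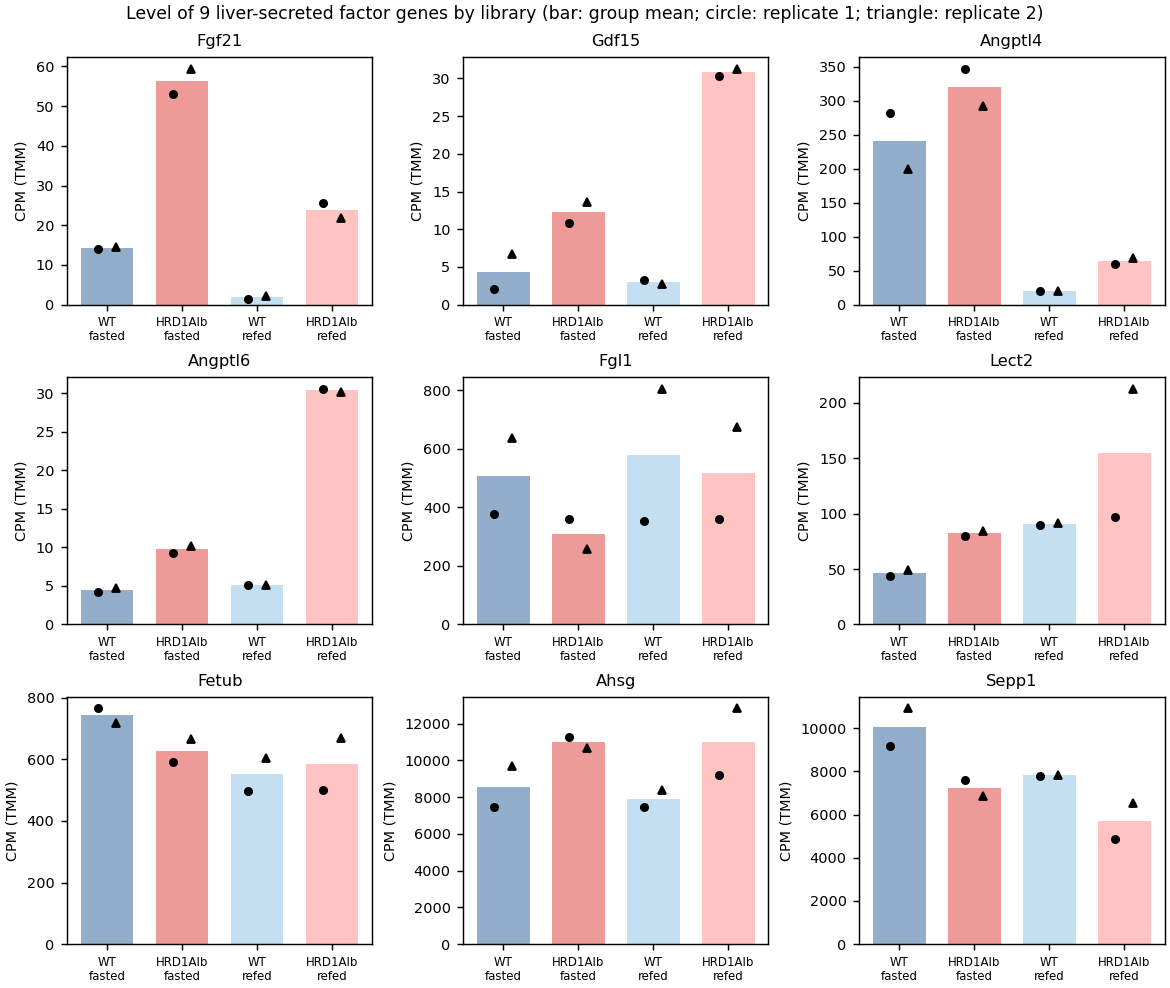
Level of each of the 9 genes in CPM (vertical axis, linear, from 0) in the 4 groups (horizontal axis), with a bar at the group mean, a circle for replicate 1 and a triangle for replicate 2. Fgf21 and Angptl4 are highest in HRD1Alb fasted liver and lowest in WT refed liver, and Gdf15 and Angptl6 are highest in the libraries labelled HRD1Alb refed.

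Fgf21, Angptl6, Angptl4 and Gdf15 carried the differences between genotypes. In fasted liver, Fgf21 was 3.91-fold and Angptl6 2.17-fold higher in HRD1Alb than in WT. In refed liver, all of Fgf21, Gdf15, Angptl6 and Angptl4 were higher in the libraries labelled HRD1Alb refed, by 12.7-fold, 10.3-fold, 5.90-fold and 3.16-fold. Fgl1, Lect2, Fetub, Ahsg and Sepp1 did not pass the test in any comparison. None of the 9 genes was called lower with the deletion.

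As a count, 2 of the 9 genes were called higher and 0 lower in fasted HRD1Alb liver, where 0.921% of all tested genes were called higher and 0.433% lower. In refed liver, 4 of 9 were called higher and 0 lower, where 7.09% of all tested genes were called higher and 4.84% lower. The median log2 fold change of the 9 genes was 0.41 in fasted and 0.77 in refed liver, against −0.02 and 0.04 over all tested genes. On refeeding, 0 of 9 were called higher and 2 lower in WT liver, against 1.20% and 1.41% of all tested genes, and 1 of 9 was called higher and 2 lower in HRD1Alb liver, against 5.43% and 5.05%. The members' medians were −0.36 and 0.00 on refeeding, against 0.00 and 0.02 over all genes. The 2 genotype comparisons share no samples, whereas each refeeding comparison shares its samples with both of them. Because the 9 genes were chosen with earlier results of these data known, the counts and medians beside those of all genes are a description and no test.

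**Figure D2:**
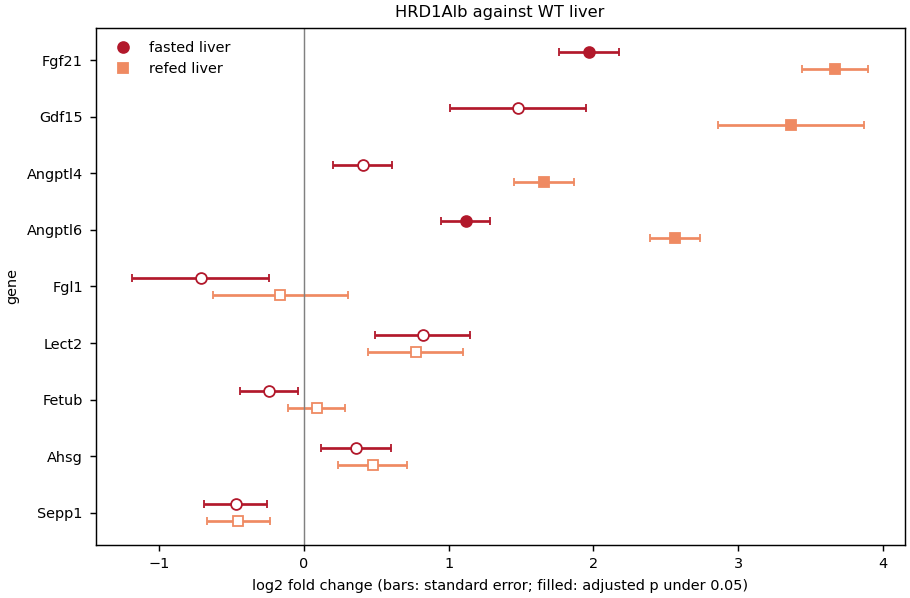
Log2 fold change of HRD1Alb over WT liver (horizontal axis) for the 9 genes (vertical axis), with circles for fasted and squares for refed liver, bars of 1 standard error and filled symbols for an adjusted p under 0.05. Fgf21 and Angptl6 are filled in both feeding states, Gdf15 and Angptl4 are filled for refed and open for fasted liver, and the other five are open in both.

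Fgf21 encodes the fasting hormone FGF21, which binds an FGF receptor together with beta-klotho. It lies on chromosome 7 (45613886 to 45615490, minus strand, mm10), where its single annotated transcript of 951 bases spans 3 exons. Fgf21 was at 14.1 and 14.6 CPM in WT fasted liver, 53.2 and 59.4 CPM in HRD1Alb fasted liver, 1.53 and 2.21 CPM in WT refed liver, and 25.6 and 21.9 CPM in the libraries labelled HRD1Alb refed. No 2 groups overlapped, and the order from low to high was WT refed, WT fasted, HRD1Alb refed and HRD1Alb fasted. The refed libraries labelled HRD1Alb thus held more Fgf21 than the fasted WT libraries, 1.65-fold by the group means. Behind the lowest values stood 62 and 84 counts.

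The log2 fold change of Fgf21 with the deletion was 1.97 ± 0.21 (SE) in fasted liver (adjusted p = 0.0156) and 3.67 ± 0.23 in refed liver (adjusted p = 0.00148, edgeR's quasi-likelihood test). In refed liver, 4 tested genes had a smaller adjusted p. Refeeding lowered Fgf21 in both genotypes, 7.69-fold in WT (log2 fold change −2.94 ± 0.22, adjusted p = 0.00509) and 2.37-fold in HRD1Alb (−1.24 ± 0.20, adjusted p = 0.0146). The deletion effect was larger in refed than in fasted liver by 1.70 on the log2 scale (95% interval 1.02 to 2.38), but this difference did not pass the test over all genes with edgeR (adjusted p = 0.544) and passed it with DESeq2 (adjusted p = 3.86e-04). The refeeding effect in HRD1Alb liver was −1.36 and −1.14 with either of the libraries labelled HRD1Alb refed left out. With replicate 1 left out, the refed deletion effect was 3.55 and the difference 1.58. With replicate 2 left out, they were 3.78 and 1.81. Over all alternatives run, the refed deletion effect ranged from 3.20 to 3.95. The refeeding effect in HRD1Alb liver then ranged from −1.74 to −1.14.

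Gdf15 encodes a stress-induced hormone of the TGF-beta superfamily and lies on chromosome 8 (70629393 to 70632456, minus strand, 2 exons). Gdf15 was at 2.05 and 6.74 CPM in WT fasted liver, 10.9 and 13.7 CPM in HRD1Alb fasted liver, 3.23 and 2.73 CPM in WT refed liver, and 30.3 and 31.3 CPM in the libraries labelled HRD1Alb refed. The libraries of HRD1Alb were above those of WT in both feeding states, and the WT fasted and WT refed libraries overlapped. Gdf15 was higher in the libraries labelled HRD1Alb refed than in WT refed liver (log2 fold change 3.37 ± 0.50, adjusted p = 0.0137), and the values with either library left out were 3.39 and 3.34. In fasted liver the value was 1.48 ± 0.47 (adjusted p = 0.162), where WT fasted replicate 1 was below replicate 2. It was 0.86 without WT fasted replicate 1 and 2.62 without replicate 2 (adjusted p = 0.312 and 0.0711). Refeeding gave −0.56 ± 0.48 in WT (adjusted p = 0.658) and 1.33 ± 0.46 in HRD1Alb (adjusted p = 0.105), where it was 1.35 and 1.31 with either refed library left out. Gfral, which encodes the hindbrain receptor of GDF15, had 0 counts in all 8 libraries, and its partner Ret stood at 0.0438 CPM or less.

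Angptl4 encodes an inhibitor of lipoprotein lipase that is made in fasted tissues and is a classical PPARalpha target. It lies on chromosome 17 (33773750 to 33781830, minus strand, 7 exons in the longest transcript). Angptl4 was at 282 and 200 CPM in WT fasted liver, 347 and 292 CPM in HRD1Alb fasted liver, 20.3 and 20.8 CPM in WT refed liver, and 60.4 and 69.2 CPM in the libraries labelled HRD1Alb refed. Every fasted library was above every refed one, and within each feeding state both HRD1Alb libraries were above both WT libraries. Refeeding lowered Angptl4 11.7-fold in WT liver (log2 fold change −3.55 ± 0.23, adjusted p = 0.00432), and no tested gene had a smaller adjusted p in that comparison. In HRD1Alb liver it fell 4.93-fold (−2.30 ± 0.21, adjusted p = 0.00399), with −2.21 and −2.40 when either refed library was left out.

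The deletion effect on Angptl4 was 0.41 ± 0.20 in fasted liver (adjusted p = 0.346) and 1.66 ± 0.21 in the refed libraries (adjusted p = 0.0105), with 1.75 and 1.56 when either library labelled HRD1Alb refed was left out. The difference between these effects was 1.25 (95% interval 0.57 to 1.93), with an adjusted p of 0.558 from edgeR and 0.0380 from DESeq2. Without the library labelled HRD1Alb refed replicate 1 the difference was 1.35, and without replicate 2 it was 1.15.

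Angptl6 encodes a further angiopoietin-like protein, a circulating factor known for raising energy expenditure in mice. It lies on chromosome 9 (20873808 to 20879727, minus strand, 6 exons). Angptl6 was at 4.19 and 4.77 CPM in WT fasted liver, 9.31 and 10.1 CPM in HRD1Alb fasted liver, 5.11 and 5.17 CPM in WT refed liver, and 30.6 and 30.2 CPM in the libraries labelled HRD1Alb refed. The replicates lay close together in every group and no groups overlapped, although the WT groups differed only 1.15-fold. Angptl6 was called higher in HRD1Alb than in WT in fasted liver (log2 fold change 1.12 ± 0.17, adjusted p = 0.0360) and in refed liver (2.56 ± 0.17, adjusted p = 0.00189). Refeeding raised it in HRD1Alb liver (1.64 ± 0.17, adjusted p = 0.00409), and the value in WT liver was 0.20 ± 0.17 (adjusted p = 0.653). With either library labelled HRD1Alb refed left out, the refed deletion effect was 2.55 and 2.57 and the refeeding effect in HRD1Alb liver 1.63 and 1.65. Over all alternatives run, these effects ranged more widely, from 2.24 to 2.60 and from 1.30 to 1.71.

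The difference between the deletion effects on Angptl6 was 1.44 (95% interval 0.90 to 1.99), with an adjusted p of 0.544 from edgeR and 3.86e-04 from DESeq2. It was 1.43 without the library labelled HRD1Alb refed replicate 1 and 1.45 without replicate 2. Angptl6 shares 265 exon bases with A230050P20Rik on the opposite strand, and without a known strand setting the reads of this stretch cannot be told apart. A230050P20Rik itself gave log2 fold changes of −0.24 in fasted and 0.24 in refed liver with the deletion (adjusted p = 0.493 and 0.330). On refeeding it gave 0.41 in WT (adjusted p = 0.281) and 0.89 in HRD1Alb liver (adjusted p = 0.0218), where Angptl6 was also called higher. Across the 8 libraries, the log2 levels of Angptl6 and Gdf15 had a Pearson's r of 0.93 and those of Fgf21 and Angptl4 an r of 0.83, over libraries that share genotype and feeding groups.

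**Figure D3:**
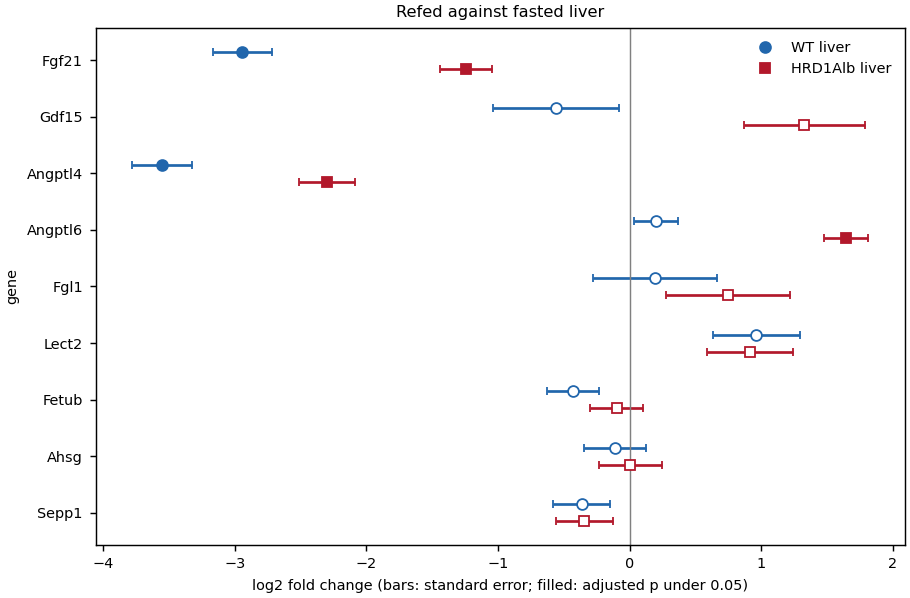
Log2 fold change of refed over fasted liver (horizontal axis) for the 9 genes (vertical axis), with circles for WT and squares for HRD1Alb liver, bars of 1 standard error and filled symbols for an adjusted p under 0.05. Fgf21 and Angptl4 fell in both genotypes, and Angptl6 is filled at 1.64 in HRD1Alb liver and open at 0.20 in WT.

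For the interaction of genotype and feeding, 0 of the 9 genes and 0% of all tested genes were called in either direction by edgeR's quasi-likelihood test, while 1209 genes had an unadjusted p under 0.05. DESeq2 called 105 genes, with Fgf21, Angptl6 and Angptl4 among them, and limma-trend called 0 genes with 1220 at an unadjusted p under 0.05. Without the library labelled HRD1Alb refed replicate 1, edgeR called 4890 genes, and without replicate 2 it called 106 genes. The interaction of Gdf15 was 1.89 ± 0.66 (edgeR's adjusted p = 0.583).

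Of the other five genes, Lect2 came closest to the test. It encodes a chemotactic hepatokine that impairs insulin signalling in muscle, and lies on chromosome 13 (56542464 to 56548502, minus strand). Lect2 was at 43.5 and 49.4 CPM in WT fasted liver, 79.9 and 84.2 CPM in HRD1Alb fasted liver, 89.4 and 91.6 CPM in WT refed liver, and 96.5 and 213 CPM in the libraries labelled HRD1Alb refed. The groups did not overlap, WT fasted was lowest, and the last pair differed more than 2-fold between its own replicates. The deletion effects were 0.82 ± 0.33 in fasted (adjusted p = 0.247) and 0.77 ± 0.33 in refed liver (adjusted p = 0.149). The refeeding effects were 0.96 ± 0.33 in WT (adjusted p = 0.207) and 0.91 ± 0.33 in HRD1Alb liver (adjusted p = 0.113). With either library labelled HRD1Alb refed left out, the fasted deletion effect and the refeeding effect in WT were called, although neither library belongs to these comparisons. The spread is estimated over all groups together, so a call can change with a library outside its comparison. The refed deletion effect was 1.23 without the library labelled HRD1Alb refed replicate 1 and 0.09 without replicate 2. With all 8 libraries and the correction for transcript length it was 0.08 (adjusted p = 0.620). The same correction brought the fasted deletion effect (0.71, adjusted p = 0.0259) and the refeeding effect in WT (0.83, adjusted p = 0.0131) past the test.

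Sepp1 encodes selenoprotein P, which carries selenium from the liver to other tissues. It lies on chromosome 15 (3268547 to 3280508, plus strand) and shares 439 exon bases with Ccdc152 on the opposite strand. Sepp1 was at 9166 and 10923 CPM in WT fasted liver, 7612 and 6872 CPM in HRD1Alb fasted liver, 7778 and 7845 CPM in WT refed liver, and 4864 and 6543 CPM in the libraries labelled HRD1Alb refed. Both HRD1Alb libraries were below both WT libraries in each feeding state. The log2 fold changes with the deletion were −0.47 ± 0.22 in fasted (adjusted p = 0.304) and −0.45 ± 0.22 in refed liver (adjusted p = 0.184). Without the library labelled HRD1Alb refed replicate 2 the refed value was −0.68, and without replicate 1 it was −0.26. With all 8 libraries and the correction for transcript length, Sepp1 was called lower with the deletion in refed liver (−0.68, adjusted p = 0.0268) and on refeeding in HRD1Alb liver (−0.59, adjusted p = 0.0454). The latter value was −0.34 ± 0.22 without the correction (adjusted p = 0.303).

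Ahsg and Fetub encode the fetuins, liver glycoproteins of the cystatin superfamily, and lie next to each other on chromosome 16 (Ahsg at 22891277 to 22899449 and Fetub at 22918334 to 22939778, both plus strand). Ahsg, known for inhibiting the insulin receptor and ectopic calcification, was at 7449 and 9674 CPM in WT fasted, 11274 and 10695 CPM in HRD1Alb fasted, 7453 and 8392 CPM in WT refed liver, and 9201 and 12831 CPM in the libraries labelled HRD1Alb refed. Both HRD1Alb libraries were above both WT libraries in each feeding state. The log2 fold changes were 0.36 ± 0.24 in fasted (adjusted p = 0.485) and 0.48 ± 0.24 in refed liver (adjusted p = 0.202). In refed liver the value was 0.70 without the library labelled HRD1Alb refed replicate 1 and 0.22 without replicate 2.

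Fetub was at 765 and 719 CPM in WT fasted, 590 and 665 CPM in HRD1Alb fasted, 498 and 604 CPM in WT refed liver, and 502 and 670 CPM in the libraries labelled HRD1Alb refed. Its neighbour Ahsg was higher in HRD1Alb than in WT libraries in both feeding states, whereas Fetub was lower in fasted liver and overlapped in refed liver. Fetub gave −0.24 ± 0.20 in fasted (adjusted p = 0.582) and 0.09 ± 0.20 in refed liver (adjusted p = 0.770). The interval of the refed value, −0.38 to 0.55, bounds a change that these samples could have missed. The refed value was 0.28 and −0.14 with either library labelled HRD1Alb refed left out.

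Fgl1 encodes a fibrinogen-like protein secreted by hepatocytes and lies on chromosome 8 (41191434 to 41215156, minus strand). Fgl1 was at 378 and 636 CPM in WT fasted, 361 and 257 CPM in HRD1Alb fasted, 354 and 805 CPM in WT refed liver, and 361 and 674 CPM in the libraries labelled HRD1Alb refed. The WT refed pair alone spanned every group mean except that of HRD1Alb fasted liver. Fgl1 gave −0.71 ± 0.47 in fasted (adjusted p = 0.482) and −0.16 ± 0.47 in refed liver (adjusted p = 0.820), with a 95% interval of −1.26 to 0.94 in refed liver, where it was 0.22 and −0.68 with either library labelled HRD1Alb refed left out.

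**Figure D4:**
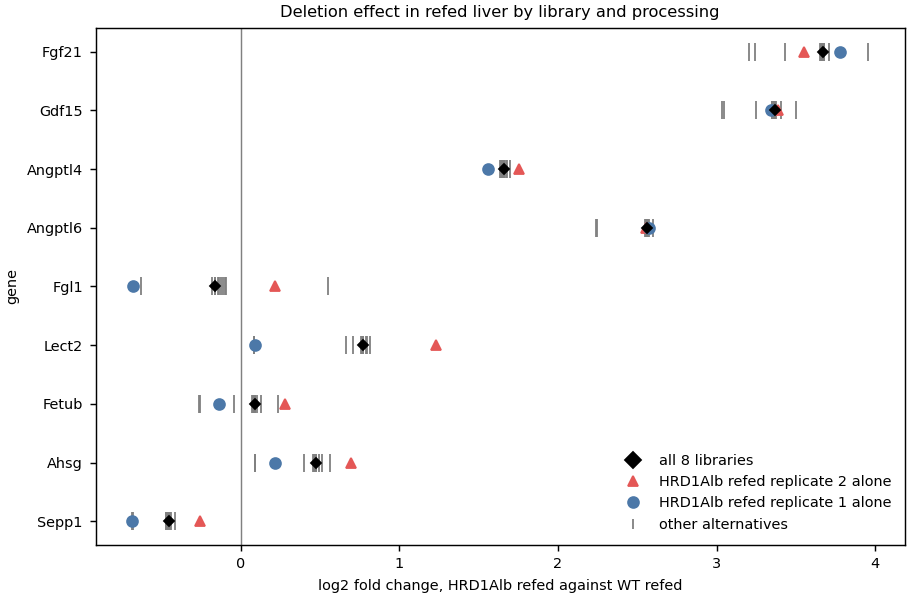
Log2 fold change of the libraries labelled HRD1Alb refed over WT refed liver (horizontal axis) for the 9 genes (vertical axis), with all 8 libraries (diamond), with only replicate 2 (triangle) or only replicate 1 (circle) of the HRD1Alb refed pair, and under the other alternatives (grey ticks). Fgf21, Gdf15, Angptl4 and Angptl6 stay far above 0, whereas Fgl1 and Fetub lie on both sides of it and Lect2 moves from 0.09 to 1.23 with the library used.

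Other angiopoietin-like and angiopoietin genes were compared with Angptl4 and Angptl6. Angptl8, listed as Gm6484 and a member of the family known to be induced by feeding, was at 10.5 and 9.42 CPM in WT fasted, 10.5 and 8.43 CPM in HRD1Alb fasted, 93.9 and 140 CPM in WT refed liver, and 95.4 and 410 CPM in the libraries labelled HRD1Alb refed. It rose on refeeding in WT (log2 fold change 3.55 ± 0.63, adjusted p = 0.0383) and in HRD1Alb liver (4.74 ± 0.67, adjusted p = 0.0106), where Angptl4 fell. The HRD1Alb value was 5.44 and 3.34 with either refed library left out. The refed deletion effect on Gm6484 was 1.11 ± 0.58 (adjusted p = 0.212), and it depended on the library used, with 1.81 without replicate 1 and −0.29 without replicate 2. Angptl2 averaged 9.14 CPM, Angpt1 0.842, Angpt2 0.416 and Angptl7 0.261 CPM, and none of these was called in any comparison. Angptl2 stood at 12.4 and 12.9 CPM in HRD1Alb fasted against 6.48 and 10.8 CPM in WT fasted liver. In refed liver it stood at 12.2 and 7.50 CPM against 4.74 and 6.04 CPM in WT. Angpt1, Angpt2 and Angptl7 overlapped WT in fasted liver. Angptl1 and Angpt4 were below the filter.

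Lpl, the lipoprotein lipase that ANGPTL4 inhibits, was at 21.8 and 33.5 CPM in WT fasted, 107 and 111 CPM in HRD1Alb fasted, 18.0 and 25.1 CPM in WT refed liver, and 143 and 129 CPM in the libraries labelled HRD1Alb refed. All HRD1Alb libraries were above all WT libraries. Lpl rose with the deletion 3.93-fold in fasted liver (adjusted p = 0.0266) and 6.33-fold in refed liver (adjusted p = 0.00691). In the main analysis, Lpl was the only gene called among 9 of lipoprotein lipase and its partners, in either genotype comparison. Over all tested genes, 0.921% were called higher and 0.433% lower in fasted liver, and 7.09% and 4.84% in refed liver. Lipc was not called, but stood at 62.2 to 92.1 CPM in HRD1Alb and at 105 to 147 CPM in WT libraries. Lipg was above WT in fasted and below WT in refed liver. The refed log2 fold change of Lpl, 2.66, was 2.58 and 2.74 with either library labelled HRD1Alb refed left out.

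Of 8 FGF receptor and hormone co-receptor genes, 5 passed the filter. Klb, which encodes beta-klotho, the co-receptor of FGF21, was at 38.0 and 45.9 CPM in WT fasted, 23.1 and 26.4 CPM in HRD1Alb fasted, 36.7 and 41.0 CPM in WT refed liver, and 20.4 and 18.6 CPM in the libraries labelled HRD1Alb refed. Every HRD1Alb library was below every WT library for Klb, whereas Fgf21 was above WT within each feeding state. Klb fell 1.99-fold with the deletion in refed liver (adjusted p = 0.0190), and the fasted log2 fold change was −0.76 ± 0.17 (adjusted p = 0.0812). Fgfr3 was also lower in refed liver (log2 fold change −0.83 ± 0.21, adjusted p = 0.0460). Fgfr4, the main FGF receptor of hepatocytes, rose on refeeding in WT (0.92 ± 0.17, adjusted p = 0.0399) and in HRD1Alb liver (0.80 ± 0.17, adjusted p = 0.0291). Fgfr1 and Fgfr2 averaged 6.54 and 28.4 CPM and were not called, and Kl stood at 0.0978 CPM or less. Fgfr1 was at 4.22 to 5.61 CPM in HRD1Alb and at 6.47 to 9.41 CPM in WT libraries, while Fgfr2 overlapped WT in fasted liver. When either library labelled HRD1Alb refed was left out, the refed deletion effects were −1.06 and −0.93 for Klb and −1.13 and −0.59 for Fgfr3. The refeeding effects of Fgfr4 in HRD1Alb liver were then 0.91 and 0.69.

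**Figure D5:**
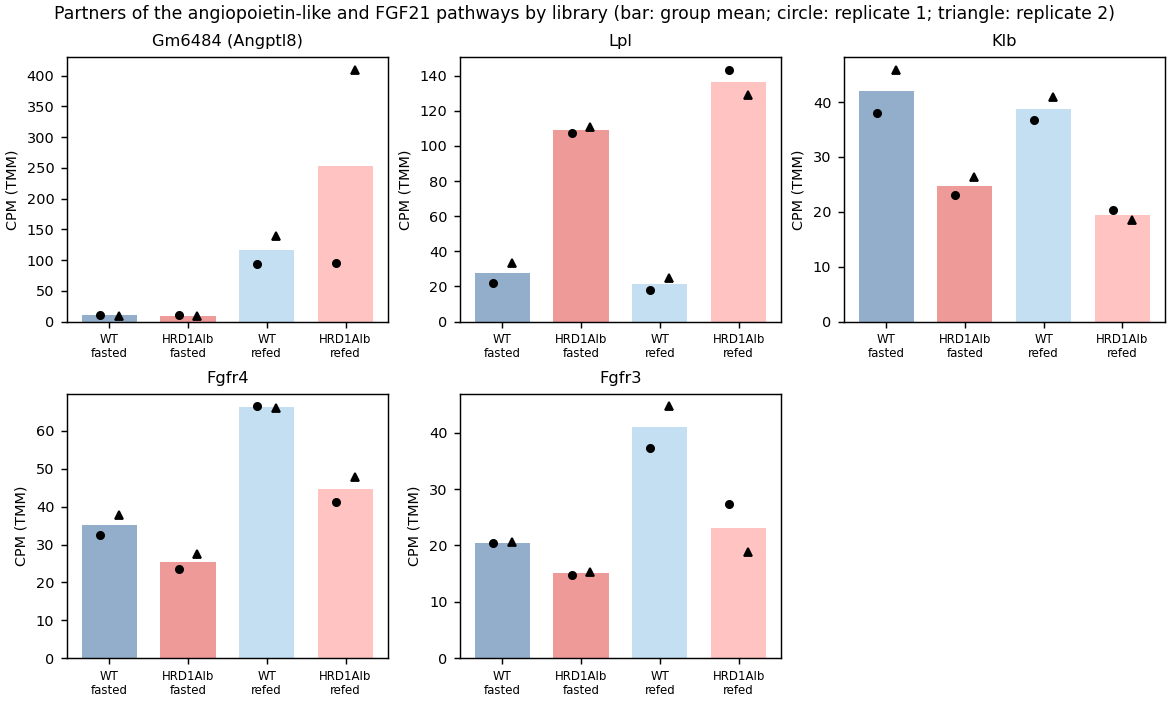
Levels in CPM (vertical axes, linear, from 0) of 2 genes of the angiopoietin-like pathway (Gm6484 or Angptl8, and Lpl) and 3 of the FGF receptor system (Klb, Fgfr4 and Fgfr3) in the 4 groups (horizontal axis), with a bar at the group mean, a circle for replicate 1 and a triangle for replicate 2. Lpl is above WT and Klb below WT in all HRD1Alb libraries, and Gm6484 reaches 410 CPM in replicate 2 of the HRD1Alb refed pair against 95.4 CPM in replicate 1.

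Other targets of the factors that are known to drive these hormones are described next, and whether these factors caused the hormone levels was not tested. Of 18 ATF4 and CHOP targets, 2 were called higher with the deletion in fasted liver (Ddit3 and Psat1) and 10 in refed liver, and none lower. Over all tested genes, 0.921% were called higher and 0.433% lower in fasted liver, and 7.09% and 4.84% in refed liver. The median log2 fold change of the 18 was 1.32 and 2.79, against −0.02 and 0.04 over all tested genes. Ddit3, which encodes CHOP, was at 6.66 and 5.62 CPM in WT fasted, 15.5 and 14.8 CPM in HRD1Alb fasted, 16.1 and 11.3 CPM in WT refed liver, and 251 and 241 CPM in the libraries labelled HRD1Alb refed. Ddit3 was highest in the same group as Gdf15 and Angptl6, whereas Fgf21 and Angptl4 were highest in HRD1Alb fasted liver. Fgf21 stood at 53.2 and 59.4 CPM there and at 25.6 and 21.9 CPM in the libraries labelled HRD1Alb refed. In refed liver, the log2 fold change was 4.17 ± 0.23 for Ddit3 (adjusted p = 0.00126), 5.60 ± 0.43 for Psat1, a serine synthesis enzyme (adjusted p = 0.00273), and 5.74 ± 0.61 for the stress regulator Nupr1 (adjusted p = 0.00820). On refeeding, 1 of the 18 was called higher and 1 lower in WT (Ddit3 and Chac1), and 6 were called higher in HRD1Alb liver. Over all tested genes, 1.20% were called higher and 1.41% lower in WT, and 5.43% and 5.05% in HRD1Alb liver. With either library labelled HRD1Alb refed left out, the refed deletion effects were 4.14 and 4.19 for Ddit3, 4.90 and 6.07 for Psat1, and 5.36 and 6.03 for Nupr1.

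Of 16 PPARalpha targets, which include Ppara itself and leave Fgf21 and Angptl4 aside, none was called higher with the deletion in either feeding state. In refed liver 3 were called lower (Ppara, Fgf1 and Cpt1a), where 4.84% of all tested genes were called lower. The median log2 fold change of the 16 was −0.37 in fasted and −0.50 in refed liver, but not all were below WT. Pdk4 was at 40.3 and 88.7 CPM in WT fasted, 205 and 229 CPM in HRD1Alb fasted, 12.6 and 10.3 CPM in WT refed liver, and 38.9 and 19.5 CPM in the libraries labelled HRD1Alb refed. Plin2 was above WT in refed liver. Ppara was at 537 and 436 CPM in WT fasted, 325 and 361 CPM in HRD1Alb fasted, 219 and 227 CPM in WT refed liver, and 74.6 and 63.7 CPM in the libraries labelled HRD1Alb refed. Ppara was below WT in both feeding states, with a refed log2 fold change of −1.69 ± 0.18 (adjusted p = 0.00817). The activity of the receptor was not measured, and its part in the levels of Fgf21 and Angptl4 was not tested. Refeeding lowered 6 of the 16 in WT and 10 in HRD1Alb liver, against 1.41% and 5.05% of all tested genes, and raised none. These included Plin2, Cpt1a and Pdk4, with log2 fold changes of −1.74 ± 0.20 for Plin2 in WT (adjusted p = 0.0154) and −1.87 ± 0.17 for Cpt1a in HRD1Alb liver (adjusted p = 0.00399). With either library labelled HRD1Alb refed left out, Ppara gave refed deletion effects of −1.81 and −1.58.

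Of 18 other liver-secreted hormones and carriers, none was called in fasted liver with the deletion, while 4 were called higher (Enho, Gpnmb, Hamp and Manf) and 1 lower (Inhbc) in refed liver. Over all tested genes, 7.09% were called higher and 4.84% lower in that comparison. Hamp, which encodes the iron hormone hepcidin, was at 383 and 393 CPM in WT fasted, 272 and 304 CPM in HRD1Alb fasted, 524 and 441 CPM in WT refed liver, and 1096 and 1026 CPM in the libraries labelled HRD1Alb refed. The fasted HRD1Alb libraries were below WT and the refed ones above, with a refed log2 fold change of 1.14 ± 0.16 (adjusted p = 0.0130). Enho, which encodes adropin, gave 1.64 ± 0.26 (adjusted p = 0.0156). Gpnmb, a glycoprotein that macrophages also express, gave 5.28 ± 0.81 (adjusted p = 0.0142), from 0.296 and 0.210 CPM in WT refed liver. Igfbp1, the insulin-repressed binding protein, fell on refeeding in both genotypes (log2 fold changes −6.39 ± 0.75 and −4.70 ± 0.69, adjusted p = 0.0154 and 0.0117), as did Fgf21 and Angptl4. With either library labelled HRD1Alb refed left out, the refed deletion effects were 1.09 and 1.18 for Hamp, 1.91 and 1.29 for Enho, and 4.54 and 5.77 for Gpnmb. Igfbp1 then gave −5.89 and −4.05 on refeeding in HRD1Alb liver.

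Of 19 tested selenoprotein and selenium-handling genes, Gpx3 and Selk were called higher with the deletion in refed liver (log2 fold changes 1.89 ± 0.41 and 0.71 ± 0.16, adjusted p = 0.0319 and 0.0326), and none was called in fasted liver. On refeeding, Scly and Selk were called higher in HRD1Alb liver (1.14 ± 0.17 and 0.75 ± 0.16, adjusted p = 0.0118 and 0.0289). Over all tested genes, 7.09% were called higher with the deletion in refed liver and 5.43% on refeeding in HRD1Alb liver. In the main analysis, none of 5 tested fibrinogen-like genes, relatives of Fgl1, was called in any comparison. The same held for 5 tested cystatin superfamily genes, relatives of the fetuins. The median log2 fold change of the fibrinogen-like genes with the deletion was −0.98 in fasted and −0.89 in refed liver. Fga stood at 3158 to 5691 CPM in WT and at 1451 to 2452 CPM in HRD1Alb libraries. Fgb and Fgg were also lower in every HRD1Alb library. Fcna was above WT in both feeding states, and Fgl2 in refed liver. Up to 4 fibrinogen-like genes in fasted and 3 in refed liver were called under the alternatives. With either library labelled HRD1Alb refed left out, the refed deletion effects were 1.54 and 2.17 for Gpx3 and 0.78 and 0.65 for Selk. Scly then gave 1.19 and 1.09 on refeeding in HRD1Alb liver.

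Markers of other cell types moved with the genotype, and in bulk RNA fewer cells of a type and less RNA per cell cannot be told apart. The summed level of 9 Kupffer cell and macrophage markers, led by Clec4f, was 115 to 135 CPM in WT and 256 to 507 CPM in HRD1Alb libraries, with 2 of 9 called higher in fasted and 7 of 9 in refed liver. The sum of 8 stellate cell and fibroblast markers, led by Dcn, was 172 to 380 CPM in WT and 368 to 512 CPM in HRD1Alb libraries, with 4 of 8 called higher in refed liver. The sum of 7 lymphocyte and neutrophil markers, led by Ptprc, was 6.93 to 9.68 CPM in WT and 13.9 to 23.1 CPM in HRD1Alb libraries, and that of 4 proliferation markers, led by Mki67, 3.02 to 4.40 and 8.29 to 14.8 CPM. The sum of 8 hepatocyte markers was 119100 to 163190 CPM in WT and 70067 to 108460 CPM in HRD1Alb libraries. Most of it was Alb, at 79498 to 110880 CPM in WT and 47753 to 76587 CPM in HRD1Alb libraries. None of the 8 was called in fasted liver and 1 (Apob) was called lower in refed liver, against 4.84% of all tested genes. Apoa1 and Ttr in the library labelled HRD1Alb refed replicate 2 were above both WT refed libraries. Endothelial markers (Stab2 the highest) summed to 105 to 139 CPM and cholangiocyte markers (Spp1 the highest) to 29.1 to 68.3 CPM over all libraries, and adipocyte markers (Cfd the highest) to 0.420 CPM or less, with Lep at 0 in all 8. Over all tested genes, 0.921% were called higher with the deletion in fasted and 7.09% in refed liver. The part of these markers in the levels of Gdf15, Fgf21, Angptl4, Angptl6 and Lpl was not tested.

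By the correlation of log2 CPM over the 8 libraries, among 11927 tested genes with a mean of at least 1 CPM, the genes most like Fgf21 were Sgcb (Pearson's r = 0.984) and Slc6a8 (0.981). Those most like Gdf15 were Fli1 (0.990) and Igfbp7 (0.984), those most like Angptl4 were Med18 (0.987) and Spc25 (0.975), and those most like Angptl6 were 5730494N06Rik (0.989) and Rrs1 (0.984). For the remaining genes, the closest were Serpina11 (0.976) and Pdzk1ip1 (0.944) to Fgl1, Aptx (0.994) and Wbp1 (0.989) to Lect2, Rom1 (0.940) and Mcm7 (0.937) to Fetub, Ifitm1 (0.981) and 1700061I17Rik (0.978) to Ahsg, and Acat1 (0.988) and Fbxo9 (0.988) to Sepp1. The 8 libraries share 4 groups, so these values describe likeness of pattern and carry no test.

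The calls rest on 2 libraries a group. An exact permutation test of 2 against 2 samples cannot give a two-sided p below 0.333, so all calls come from the spread that edgeR estimates across genes and groups. Without any 1 of the 4 fasted libraries, the fasted calls of Fgf21 and Angptl6 were lost, with log2 fold changes of 1.89 to 2.05 and 1.03 to 1.25. The fasted call of Angptl6 was also lost without WT refed replicate 1 (edgeR's adjusted p = 0.113) or replicate 2 (0.113), which are not part of that comparison, at a log2 fold change of 1.11 and 1.12. Without WT refed replicate 1, the refed calls of Fgf21, Gdf15, Angptl4 and Angptl6 were lost, with log2 fold changes of 3.43, 3.50, 1.65 and 2.56. Without WT refed replicate 2, the call of Fgf21 remained and the other three were lost. The refeeding calls in WT were lost without either WT refed library, and those in HRD1Alb without HRD1Alb fasted replicate 1, while without HRD1Alb fasted replicate 2 only that of Angptl4 remained.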

How the data were processed

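Liver RNA of 8 samples was analysed, 2 in each of 4 groups set from the labels. The deposited files hold whole-number read counts per gene. The authors' methods describe Illumina sequencing with 1 lane a sample and counting with ERANGE, whereas the submitters' processing notes name cutadapt, STAR, HTSeq, DESeq2 and the mm10 build, so the counter behind the deposited counts is not settled, and the annotation and the strand setting are not given in the sources used here. Reads of overlapping genes therefore cannot be separated.

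Counts of 14328 of 23337 genes that passed filterByExpr (minimum count 10, minimum total 15) were tested with edgeR 4.0.16 (R 4.3.3), using TMM scaling, 1 coefficient per group over all 8 samples and the quasi-likelihood test. A gene was called at a Benjamini-Hochberg adjusted p under 0.05 over all tested genes of a comparison. SE was derived from the fold change and its F statistic. The scripts were tested on simulated data. Library totals of 40210576 to 49117080 put 3 counts at 0.0611 to 0.0746 CPM. Intervals cover these samples only. The alternatives were RLE scaling, DESeq2 1.42.0, limma-trend (limma 3.58.1, the test nearest to the authors'), other filters, only the groups compared, a replicate block, a correction for transcript length, a 2-fold threshold, and each library left out.

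The members and gene lists were chosen with earlier results of these data known, and the study itself named Fgf21 from them. Genes named were all members, Syvn1, the angiopoietin-like and FGF receptor lists, the 3 called genes with the smallest adjusted p of each other list, and the 2 genes most correlated with each member. Some genes of these lists are not reported here. Outside this rule, A230050P20Rik, Ccdc152, and the called or listed genes of counts of 5 or fewer were named after their values were seen. The same holds for Fga, Fgb, Fgg, Fgl2, Fcna, Lipc, Lipg, Apoa1 and Ttr. Positions are from GENCODE M21 and promoter windows from RefSeq, both GRCm38, with 98% of symbols matched.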

Additional observations from a re-analysis of the deposited data

How the results depend on the processing

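Fgf21, Gdf15, Angptl4 and Angptl6 kept the direction of their refed deletion effect under every alternative run. Their log2 fold changes ranged from 3.20 to 3.95, 3.0 to 3.5, 1.56 to 1.75 and 2.24 to 2.60. The number of members called depended on the model. Members called with the deletion in fasted liver were 2, and 1 with the replicate block (Fgf21; Angptl6 at an adjusted p of 0.0531). They were 3 with only the groups compared and with the length correction, with or without the block (Lect2 added), and 3 with DESeq2 and at 2-fold and an unadjusted p under 0.05 (Gdf15 added). In refed liver 4 were called, and 0 when only the samples of the groups compared were fitted, where the divergent pair makes up 2 of 4 libraries (adjusted p 0.0525 to 0.0865), and 5 with the length correction, with or without the block (Sepp1 added). With only the groups compared, 0 of the 3 members called on refeeding in HRD1Alb liver remained, while the length correction gave 4 (Sepp1 added) and DESeq2 and the 2-fold rule 4 (Gdf15 added). On refeeding in WT liver, only the groups compared and the length correction each gave 3 against 2 (Lect2 added). For the interaction, 0 members were called, against 4 at 2-fold and an unadjusted p under 0.05 and 3 with DESeq2, and this fit could not be run on the compared groups only, since it needs all 8 samples. Leaving out 1 library at a time gave 0 to 3, 0 to 6, 0 to 3, 0 to 4 and 0 to 3 members called for fasted deletion, refed deletion, refeeding in WT, refeeding in HRD1Alb and the interaction; where this left a group with 1 library, that library was assumed to vary like the others. The block changed no other count of members. Same-numbered samples deviated together with r of 0.0161 to 0.179 over 6 pairs of groups, so the numbers were not taken to pair the samples.

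Calls over all genes ranged, over these alternatives, from 0 to 3155 (194 in the main analysis), 0 to 7690 (1709), 0 to 2533 (374), 0 to 7474 (1501) and 0 to 4890 (0) in the same order, with the highest values without the library labelled HRD1Alb refed replicate 1, and the block gave 119, 1396, 305, 1343 and 0. The 10 ATF4 and CHOP targets called in refed liver ranged from 0 to 14, the 10 PPARalpha targets called on refeeding in HRD1Alb liver from 0 to 13, the 7 Kupffer cell markers from 0 to 8, and the 2 FGF receptor calls in refed liver (Klb and Fgfr3) from 0 to 3.

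Log2 fold changes near 0 changed sign. With the length correction, and with it and the block, Fetub gave −0.26 and −0.26 in refed liver, Ahsg −0.41 and −0.40 on refeeding in HRD1Alb liver and −0.22 and −0.22 for the interaction, and Sepp1 −0.18 and −0.18 for the interaction. Ahsg on refeeding in HRD1Alb liver was −0.015 with limma-trend, −0.0075 without a filter and −0.019 with the block. The Sepp1 interaction was −0.0012 with limma-trend and −0.00099 with the block. With 1 library left out, the values that changed sign ranged from −0.68 to 0.55 for Fgl1 and −0.14 to 0.28 for Fetub in refed liver. On refeeding in WT they ranged from −1.18 to 0.58 for Gdf15, −0.52 to 0.66 for Fgl1 and −0.29 to 0.12 for Ahsg. In HRD1Alb liver they ranged from −0.32 to 0.093 for Fetub and −0.26 to 0.22 for Ahsg. For the interaction they ranged from −0.73 to 0.41 for Lect2, −0.14 to 0.34 for Ahsg and −0.21 to 0.22 for Sepp1. The causes were not tested. Levels per kilobase moved beyond the replicate spread for Angptl4, Fgl1, Fetub, Ahsg and Sepp1 with the mean transcript length, and the order of the 9 genes did not.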
